A study of Mus musculus with 6 samples.

Results

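The nuclear genes of the mitochondrial respiratory chain were taken as the genes whose platform symbol begins with Nduf and a letter of A, B, C, S or V, is one of Sdha to Sdhd, or begins with Uqcr, Cox4 to Cox8 or Atp5. Only probe sets naming 1 gene were used, and the brightest stood for each gene. This gave 80 of 22180 genes: 33 of complex I, 4 of complex II, 8 of complex III, 17 of complex IV and 18 of complex V. Atp5c1-ps and Uqcrh-ps1, 2 of the 80, are pseudogenes by their symbols. Another 5 symbols occurred only in probe sets naming several genes, and the 13 subunits encoded in mitochondrial DNA had no probe set of their own, so none of these was analysed here.

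The tested material was 3 mammary tumors (numbers 23, 24 and 25) from Trp53L/L;Brca1L/L females, collected several months after an adenovirus carrying Cre recombinase under the keratin 8 promoter (Ad-K8-Cre) had been injected into the ducts. The labels call these tumors null for Trp53 and Brca1. The wild-type samples (K8wt replicates 1, 2 and 4) were luminal mammary cells positive for yellow fluorescent protein, sorted from Rosa26-Stop-YFP females between 10 and 14 days after the same virus, so both groups had received Cre. Only the wild-type cells are described as sorted, so the tumors stand for tissue. Ages are not given, and tumors may have shared a mouse, since nothing in the labels settles this. All values are log2 expression values from RMA, and a difference of 1 is a doubling. RMA is a normalization meant to bring arrays to a common distribution, but the arrays as deposited did not share one exactly. The SD over all probe sets was 2.10 to 2.16 on the tumor arrays and 1.96 to 2.00 on the wild-type arrays.

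The respiratory chain sits in the inner mitochondrial membrane. Complexes I and II pass electrons from NADH and succinate to coenzyme Q, complex III passes them to cytochrome c and complex IV to oxygen, and complex V uses the resulting proton gradient to make ATP. Core subunits include those that carry the catalytic centres, though not every gene classed as core here does. Accessory subunits serve stability and assembly, and several complex IV subunits have isoforms of muscle, lung or testis. Nuclear and mitochondrial genomes both contribute subunits to every complex but complex II, which is nuclear alone.

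The luminal keratins Krt8 and Krt18 lay above background on all arrays. Krt8 measured 9.41, 7.76 and 9.19 in tumors 23, 24 and 25, against 10.31, 11.08 and 11.12 in wild-type replicates 1, 2 and 4. Krt19 had the lowest difference of the luminal markers, -4.36 ± 0.94 (adjusted p of 0.0588 in limma), with 5.91, 4.83 and 2.05 in tumors, against 8.0, 9.08 and 8.78 in wild-type cells, and its tumor 25 value was under the background level of its array. The 10 luminal markers averaged 8.0, 6.82 and 7.21 in these tumors and 8.80 to 9.56 in wild-type cells. At an adjusted p under 0.05 in limma 2 of them, Esr1 and Cd24a, fell, where 1.39% of all genes did. Skeletal muscle markers stood apart by tumor, with a mean over 12 genes of 8.70, 3.69 and 5.86 in tumors 23, 24 and 25, against 3.52 to 3.73 in the other group. Summed on the linear scale they reached 8601, 210 and 1134 in these tumors, against 181 to 186 in wild-type cells. Of the 10 macrophage markers 6 rose in tumors by the same test, where 2.52% of all genes did, while Cd14 differed by -0.71 ± 0.66. The mean of the 10 was 6.49 to 7.21 in tumors and 4.23 to 4.90 in wild-type cells. The fibroblast markers (10 genes) averaged 6.47, 6.97 and 5.55 in these tumors, while wild-type cells had 5.43 to 6.11. The basal markers (8 genes) averaged 6.31, 6.72 and 5.61 in them, and 5.72 to 6.15 in wild-type cells. Background was marked on each array by the 95th percentile of 1088 olfactory receptor genes, which was 3.19, 3.44 and 3.39 on the tumor arrays and at 3.75, 3.85 and 3.69 on the wild-type arrays. Values under it are not told from background here.

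In the mean of the 3 tumors the median respiratory chain gene lay close to its wild-type level, but the tumors differed widely among themselves. The SD between tumors had a median of 0.60 over the 80 genes, against 0.28 over all genes, so few calls do not show equal levels. With p-values from limma, Benjamini-Hochberg adjusted over all genes, 1 of the 80 genes passed the threshold of 0.05, and it fell: Atp5g1, one of the genes for the membrane-ring subunit c of complex V. Over all 22180 genes, 3.91% passed, 2.52% higher and 1.39% lower in tumors. At an unadjusted p under 0.05, 6 of the 80 measured higher and 7 lower in tumors, where the background was 26.4% in either direction. The groups did not overlap for 12 of the 80 (15.0%), against 36.4% of all genes. The 4 of these that lay higher in every tumor were Ndufs1, Ndufs7, Ndufv1 and Sdhb, all core subunits. The background for this direction was 14.0% of all genes, and 1892 of the 7726 genes with a mean of at least 5 over the 6 arrays. The 8 that lay lower in every tumor were Ndufa12, Uqcrfs1, Uqcrh-ps1, Cox6b2, Cox7a2l, Atp5d, Atp5g1 and Atp5g3, where the background was 22.4%.

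The median difference over the 80 genes, tumor minus wild type, was -0.06, beside -0.12 over all genes. In these arrays bright genes lay higher in tumors as a whole. Among genes with a mean of at least 5 over the 6 arrays, the median was 0.01 for 62 respiratory chain genes and 0.32 for all 7726. By complex the medians were 0.08 for complex I, 0.68 for complex II, -0.31 for complex III, -0.18 for complex IV and -0.33 for complex V. For tumor 24 alone against wild type the medians were -0.52, -0.11, -0.62, -0.63 and -0.60 in the same order. The 16 core subunits had a median of 0.48, with 13 higher means, and the other 64 genes one of -0.18, with 24. All core subunits but Atp5c1 had a mean of at least 5, where 65.1% of all genes had higher means in tumors. The 18 members with a mean under 5 had a median of -0.28. All of these 18 but Atp5c1 belong to the other genes. Mean levels on the wild-type arrays were 6.87 to 7.13 for core subunits and 7.41 to 7.49 for the other genes. Among complex I genes with a mean of at least 5, the 6 core subunits had a median of 0.62 and the 24 accessory ones 0.02. The contrast of core and other genes was not tested. Leaving out 1 array gave core medians from 0.097 to 0.74, and tumor 24 alone gave -0.23. Centring the arrays on 13 housekeeping genes, in place of RMA's own scale, moved the median of all genes to -0.74. The medians became -0.68 for the 80 genes and -0.14 for the core subunits, the latter with 6 of 16 higher means. Sdha, a core subunit of complex II, is among the 13, so this scale rests in part on a member. Differences are therefore relative to the scale of the arrays. In a bulk sample, fewer cells of a type and less RNA per cell cannot be told apart.

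**Figure D1:**
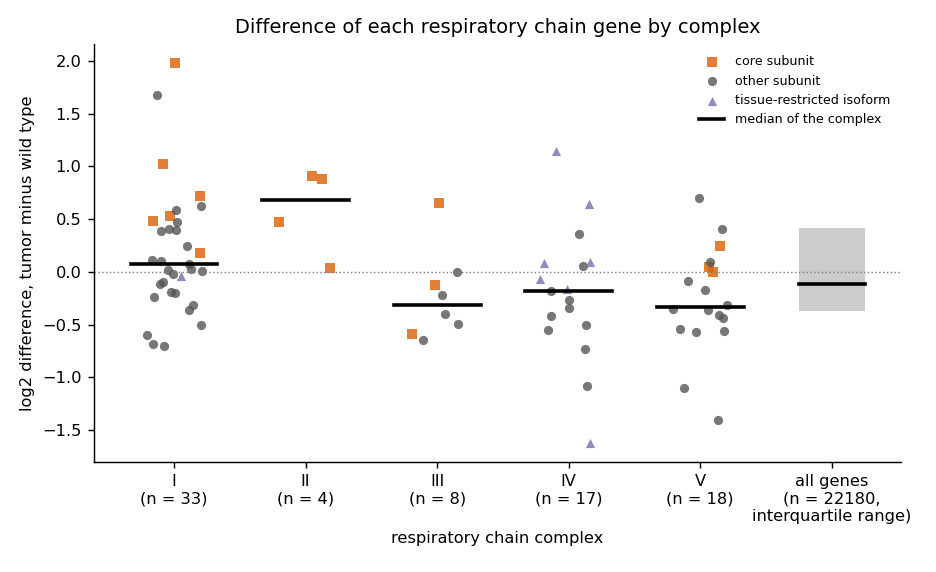
Each point is 1 respiratory chain gene, placed by its complex on the horizontal axis and by its log2 difference, tumor mean minus wild-type mean (n = 3 arrays each), on the vertical axis; bars are medians, and the grey box spans the interquartile range of all 22180 genes. The 6 core subunits of complex I all lie above 0, while the medians of complexes III, IV and V lie at -0.31, -0.18 and -0.33.

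Within the tumors, respiratory chain genes moved together from array to array. Tumor 23 was the highest tumor for 63 of the 80 genes (78.75%, against 31.8% of all genes), and tumor 24 was the lowest for 62 (77.5%, against 39.0%). Against the wild-type mean, the median gene of the 80 stood at 0.51 in tumor 23, -0.62 in tumor 24 and -0.09 in tumor 25. For all genes these medians were -0.12, -0.14 and -0.11. Tumor 24 was the lowest of all 6 arrays for 49 of the 80 genes (61.25%, against 21.4% of all genes). The order 23, then 25, then 24 was seen in 51 of 80 genes (63.75%), against 17.9% of all genes.

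The same pattern was seen among bright genes alone. Among the 62 bright members the same order held for 44 (71.0%), against 20.3% of bright genes. Tumor 23 lay above the wild-type mean for 51 of these 62 (82.3%, against 64.0% of bright genes), tumor 25 for 34 (54.8%, against 67.9%) and tumor 24 for 6 (9.68%, against 57.2%). The SD between tumors had a median of 0.68 over the bright members and that between wild-type arrays one of 0.19. For all bright genes these SDs were 0.47 and 0.39. The wild-type arrays therefore lay closer together for respiratory chain genes than for bright genes in general, and the tumors farther apart. No test was made of this pattern, since genes of 1 array are not independent.

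Several marker lists also stood apart on these arrays. Tumor 24, with the lowest respiratory chain values, had muscle markers at 3.69, within 0.2 of every wild-type array, and the lowest luminal mean of the 6 arrays (6.82). It also had the highest fibroblast mean (6.97) and the highest basal mean (6.72), and was the highest tumor for 6 of the 10 fibroblast and 5 of the 8 basal markers. In tumor 24, 8 of the fibroblast markers lay above the wild-type mean and 2, Dcn and Dpt, below it. Dcn measured 7.52 there, against 10.10 to 11.11 in wild-type cells. Tumor 23, with the highest values, had the highest muscle mean. With the muscle mean as a covariate in limma the median difference of the 80 genes was -0.56, and for tumor 24 alone against wild type it was -0.62. These figures are not independent: the muscle mean varied mainly among the tumors, and only tumor 24 lay at the wild-type level. The part of other cell types in the pattern was not tested beyond these values.

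**Figure D2:**
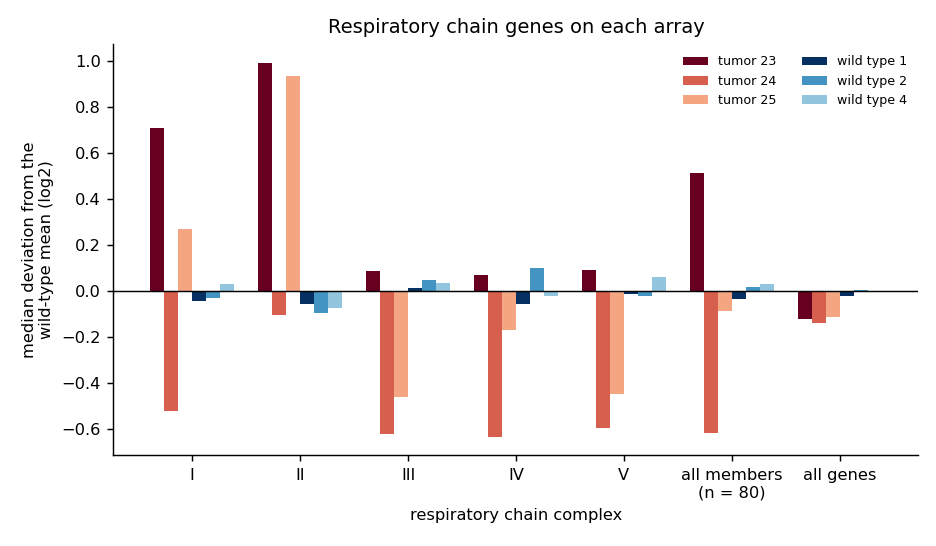
For each complex, bars give the median over its genes of the deviation of each array from the wild-type mean (log2), for the 3 tumors and then the 3 wild-type arrays; the rightmost sets are all 80 members and all 22180 genes. Tumor 24 lies below 0 in every complex, while tumor 23 reaches 0.71 in complex I and 0.99 in complex II and stays within 0.1 of 0 in complexes III to V.

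Promoters of nuclear genes of the chain are known for sites of the factors NRF1, GABP of the ETS family, ERR and YY1. RefSeq promoters (assembly GRCm38.p6, 250 bases before to 50 after the gene start) were at hand for 64 of the 80 genes, and 5 motifs were searched on both strands. The NRF1 site (GCGC, any 2 bases, GCGC) occurred in 15 of the 64 (23.4%), against 6.43% of 27025 promoters of the table and 8.92% of the 16990 of genes on the array. The ETS site CCGGAAG occurred in 16 (25%, against 9.12% of all and 11.7% of array genes), the YY1 site AAGATGGC in 8 (12.5%, against 2.88% and 3.31%) and the ERR site TCAAGGTCA in 2 (3.13%, against 0.407% and 0.324%). At least 1 of these 4 motifs occurred in 35 of the 64 (54.7%), against 16.9% of all promoters and 21.5% of those of array genes. The core ACGTG of sites bound by hypoxia-inducible factors occurred in 17 (26.6%), against 19.7% and 21.3%. Promoters of the 64 had a median GC content of 57.3%, those of array genes 56.3% and all promoters 52.7%. Genes with the NRF1 site had a median difference of -0.10 and the other 49 one of -0.12. The 17 with the ACGTG core had one of -0.32 and the other 47 one of -0.0029. The 8 with the YY1 site had one of 0.17 and the other 56 one of -0.14. For the 16 with the ETS site it was -0.085, against -0.11 for the other 48, and none of these contrasts was tested.

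The 120 bases before the start are shown for 6 genes that hold a motif match there, 5′ to 3′ on the gene's strand, with every match in capitals. Ndufa9, Ndufv1 and Cox7a1 were searched in the same way and are not shown, since they hold no match in this stretch. Sdha and Sdhd of complex II lie at chr13:74350241-74350360 and chr9:50603850-50603969, and hold NRF1 matches (3 in Sdha, 1 in Sdhd) and, in Sdhd, an ETS match on the other strand. Cox6a1 (chr5:115348959-115349078) and Cox6b1 (chr7:30626115-30626234) of complex IV hold ETS matches on the other strand, and Cox6a1 an NRF1 match. Atp5g1 (chr11:96075632-96075751) and Atp5g3 (chr2:73911327-73911446) encode the same mature subunit c and share no motif in this stretch, where Atp5g1 holds ACGTG, in 1 place as the palindrome CACGTG, and Atp5g3 an ERR match on the other strand. All 6 genes lie on the minus strand.
Sdha: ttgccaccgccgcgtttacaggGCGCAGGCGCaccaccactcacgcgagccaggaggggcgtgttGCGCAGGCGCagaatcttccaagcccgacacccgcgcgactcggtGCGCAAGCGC
Sdhd: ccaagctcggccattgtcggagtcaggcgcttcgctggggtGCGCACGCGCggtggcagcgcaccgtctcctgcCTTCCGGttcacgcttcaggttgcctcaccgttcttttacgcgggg
Cox6a1: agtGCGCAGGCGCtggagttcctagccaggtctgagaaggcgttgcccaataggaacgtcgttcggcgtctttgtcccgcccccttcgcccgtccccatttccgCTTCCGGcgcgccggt
Cox6b1: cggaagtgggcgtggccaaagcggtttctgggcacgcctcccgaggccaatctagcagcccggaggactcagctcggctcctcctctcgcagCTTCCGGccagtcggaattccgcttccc
Atp5g1: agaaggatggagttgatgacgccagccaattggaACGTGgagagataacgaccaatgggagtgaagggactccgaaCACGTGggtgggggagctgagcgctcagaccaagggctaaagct
Atp5g3: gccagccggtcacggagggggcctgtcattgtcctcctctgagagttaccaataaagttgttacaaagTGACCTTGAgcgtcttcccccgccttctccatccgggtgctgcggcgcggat

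In complex I, the entry point for electrons from NADH, no gene passed the test, and 20 of 33 had higher means in tumors. The 6 core subunits measured all had higher means, with a median of 0.62, beside 0.01 for the 27 others. Ndufs1, the largest iron-sulfur subunit, measured 6.47, 5.99 and 6.99 in tumors 23, 24 and 25, against 4.74, 3.44 and 5.32 in wild-type replicates 1, 2 and 4. Every tumor lay above every wild-type array, although the wild-type value of replicate 2 was under the background mark. The difference was 1.98 ± 0.51 (SE). In limma its adjusted p was 0.084. Ndufv1, which binds NADH and flavin mononucleotide, measured 8.28, 7.51 and 8.33 in tumors, against 7.12, 6.52 and 7.43 in wild-type cells. Its groups did not overlap either, by a narrow margin between tumor 24 and wild-type replicate 4, and the difference was 1.02 ± 0.33 (adjusted p of 0.125).

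Ndufs7, an iron-sulfur subunit at the coenzyme Q end, measured 7.27, 7.18 and 7.16 in tumors, against 6.69, 6.99 and 6.48 in wild-type cells. The 3 tumors lay close to each other and above all wild-type arrays, and the difference was 0.48 ± 0.19 (adjusted p of 0.171). Ndufs8, its neighbour in the electron path, measured 8.11, 5.84 and 7.24 in tumors, against 6.31, 6.03 and 6.70 in wild-type cells. Here tumors 23 and 25 lay above all wild-type arrays and tumor 24 below them. The difference was 0.72 ± 0.56, and with the muscle mean as a covariate it was -0.36. Ndufv2, which carries an iron-sulfur cluster next to the flavin, measured 9.69, 8.0 and 8.70 in tumors, against 8.29, 8.23 and 8.30 in wild-type cells, again with tumor 24 below and the other tumors above. Ndufs3 differed by 0.18 ± 0.29, the smallest difference of the 6 core subunits.

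Among the accessory subunits, Ndufa9, which sits beside the coenzyme Q site, measured 9.62, 8.14 and 9.61 in tumors, against 6.60, 8.28 and 7.45 in wild-type cells. Tumors 23 and 25 lay more than 1 above all wild-type arrays, tumor 24 lay within their range, and the difference was 1.68 ± 0.56 (adjusted p of 0.132 in limma). At the other end, Ndufa3 measured 9.08, 8.23 and 8.33 in tumors, against 9.78, 8.66 and 9.32 in wild-type cells, a difference of -0.71 ± 0.36 (adjusted p of 0.255). Ndufa7 measured 8.32, 6.53 and 6.31 in tumors, against 7.83, 7.61 and 7.77 in wild-type cells. Its tumor 23 value lay above and those of tumors 24 and 25 more than 1 below the wild-type arrays. The difference of -0.68 ± 0.52 thus rested on tumors 24 and 25. Ndufa12, named for its groups that did not overlap, measured 7.03, 6.28 and 6.89 in tumors, against 7.19, 7.30 and 7.50 in wild-type cells. Ndufa4, classed here with complex I by its symbol although its product was later assigned to complex IV, differed by 0.02 ± 0.39, and its hypoxia-inducible relative Ndufa4l2 lay under the background mark on all 6 arrays.

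**Figure D3:**
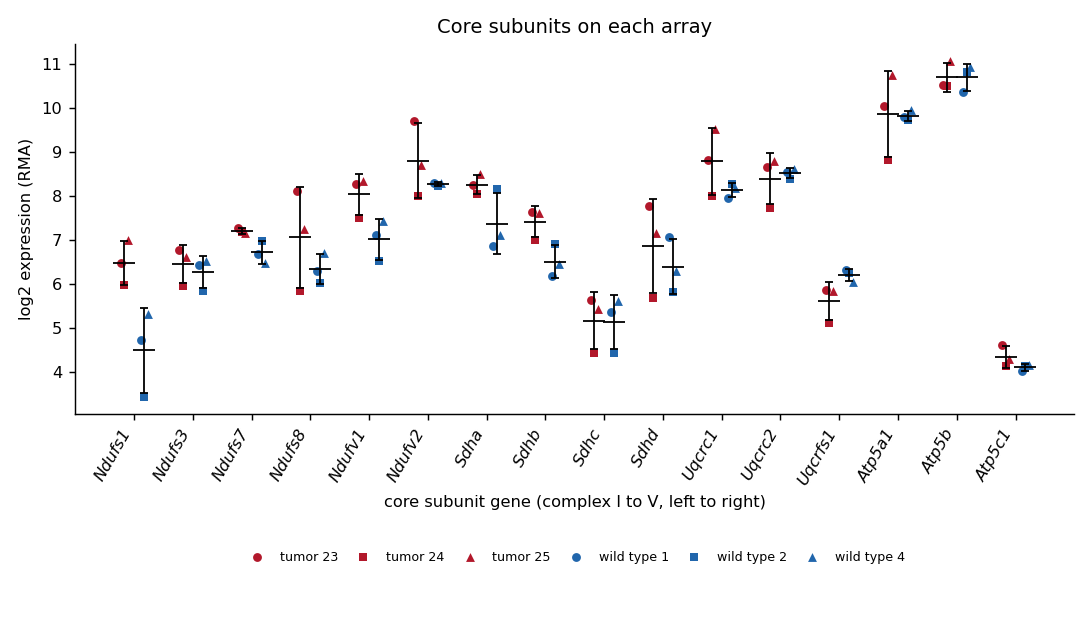
Points are the log2 RMA values of the 16 core subunits in each tumor (red, left of each pair) and each wild-type array (blue, right), with the mean and SD of 3 arrays as black lines; levels of different genes come from different probe sets and are not compared. Ndufs1, Ndufs7, Ndufv1 and Sdhb are the genes whose tumors all lie above the wild-type arrays.

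Complex II, succinate dehydrogenase, is also an enzyme of the tricarboxylic acid cycle. All 4 subunits had higher means in tumors, none passed the test, and the median difference was 0.68. Sdhb, the iron-sulfur subunit, measured 7.63, 7.01 and 7.62 in tumors, against 6.18, 6.90 and 6.46 in wild-type cells. The groups did not overlap, by 0.11 at the nearest pair, and the difference was 0.91 ± 0.27 (adjusted p of 0.111 in limma). Sdha, the flavoprotein subunit, measured 8.24, 8.04 and 8.49 in tumors, against 6.86, 8.15 and 7.12 in wild-type cells. Wild-type replicate 2 lay above tumor 24 here, and the difference was 0.88 ± 0.36 (adjusted p of 0.180). The membrane anchor Sdhd measured 7.76, 5.69 and 7.15 in tumors, against 7.07, 5.82 and 6.30 in wild-type cells, with 1.07 of SD between tumors. The other anchor, Sdhc, differed by 0.03 ± 0.43. The catalytic pair, Sdha and Sdhb, thus had differences of 0.88 and 0.91, and the anchors of 0.47 and 0.03; that contrast was not tested.

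In complex III, 2 of 8 genes had higher means in tumors and none passed. Uqcrc1, a core subunit on the matrix side, had the highest difference and measured 8.82, 8.0 and 9.52 in tumors, against 7.95, 8.28 and 8.17 in wild-type cells. Tumor 25 was the highest of the tumors here, tumor 24 lay within the wild-type range, and the difference was 0.65 ± 0.38 (adjusted p of 0.306 in limma). Its partner Uqcrc2 differed by -0.12 ± 0.30. Uqcrfs1, the Rieske iron-sulfur protein, measured 5.87, 5.12 and 5.84 in tumors, against 6.32, 6.24 and 6.05 in wild-type cells. Every tumor lay below every wild-type array, by 0.18 at the nearest pair, and the difference was -0.59 ± 0.25 (adjusted p of 0.193). Uqcrq, a small accessory subunit, had equal means (difference 0.00 ± 0.39), with 8.80, 7.34 and 7.59 in tumors 23, 24 and 25. The pseudogene Uqcrh-ps1 differed by -0.65 ± 0.21 and lay under the background mark on all 6 arrays.

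Complex IV, cytochrome c oxidase, had a median difference of -0.18 over 17 genes, with 6 higher means and none past the test. Cox6b1, an intermembrane-space subunit that joins the complex into dimers, measured 9.59, 8.03 and 8.67 in tumors, against 9.95, 9.50 and 10.08 in wild-type cells. Tumors 24 and 25 lay below all wild-type arrays and tumor 23 overlapped with replicate 2. The difference was -1.08 ± 0.41, with an adjusted p of 0.162 in limma. Its testis isoform Cox6b2 had the lowest difference of all 80 genes, -1.62 ± 0.36 (adjusted p of 0.061), with 4.31, 3.99 and 3.41 in tumors, against 6.04, 4.93 and 5.60 in wild-type cells. Every tumor lay below every wild-type array, and Cox6b2 passed in 5 of 15 alternative settings. No array was under its background mark, although the value of tumor 25 was close to it (3.41 against 3.39). Cox7a2l, known for joining complexes III and IV into supercomplexes, measured 6.01, 5.74 and 5.59 in tumors, against 6.37, 6.74 and 6.42 in wild-type cells. Named for its groups that did not overlap, it differed by -0.73 ± 0.20 (adjusted p of 0.092).

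Apart from Cox6b1 and Cox7a2l, the 8 ubiquitous subunits of complex IV had differences between -0.55 and 0.36, none past the test. Cox4i1 differed by -0.27 ± 0.33, Cox6a1 by -0.55 ± 0.39, Cox7a2 by 0.36 ± 0.45, Cox7b by -0.42 ± 0.27 and Cox8a by -0.18 ± 0.23. For Cox6a1 the spread lay in tumor 24, at 9.11 against 10.42 and 10.41 in tumors 23 and 25, with wild-type cells from 10.24 to 10.77.

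Isoforms of heart and skeletal muscle were high in tumor 23. Cox8b measured 7.28, 2.10 and 2.88 in tumors 23, 24 and 25, against 2.44, 4.05 and 2.33 in wild-type cells. Only tumor 23 stood clearly above the background mark, and the difference of 1.15 ± 1.34 rested on it: without tumor 23 it was -0.45. Cox7a1 measured 8.07, 3.87 and 6.21 in tumors, against 5.90, 6.56 and 5.41 in wild-type cells, so tumor 23 lay above and tumor 24 below all wild-type arrays. Cox6a2 measured 5.43, 3.48 and 3.83 in tumors, against 3.30, 3.63 and 3.89 in wild-type cells. The muscle marker Atp2a1, the sarcoplasmic calcium pump, followed the same order, with 10.43, 3.32 and 7.70 in tumors, against 3.31, 3.15 and 2.78 in wild-type cells. So did the skeletal actin Acta1, with 11.07, 5.69 and 8.61 in tumors, against 5.02, 4.77 and 5.32 in wild-type cells. None of the 12 muscle genes passed the test. On all wild-type arrays 7 of them were under the background mark, and these 7 were under it in tumor 24 too, as was Pvalb (3.14). Their part in the values of the muscle isoforms was not tested. Of 6 markers of brown adipocytes, another cell type rich in mitochondria, Ucp1 and Elovl3 lay under the mark on all 6 arrays and 3 others on some arrays. Cidea lay above it on every array, with 3.89, 4.57 and 5.51 in tumors, against 5.22, 5.61 and 4.56 in wild-type cells. The mean of these 6 markers was 3.24, 3.21 and 3.59 in the tumors, and the wild-type arrays had 3.13 to 3.56. The other restricted isoforms stayed near background: Cox4i2 of lung differed by 0.08 ± 0.30, and Cox7b2 and Cox8c of testis by -0.16 ± 0.17 and -0.07 ± 0.22.

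**Figure D4:**
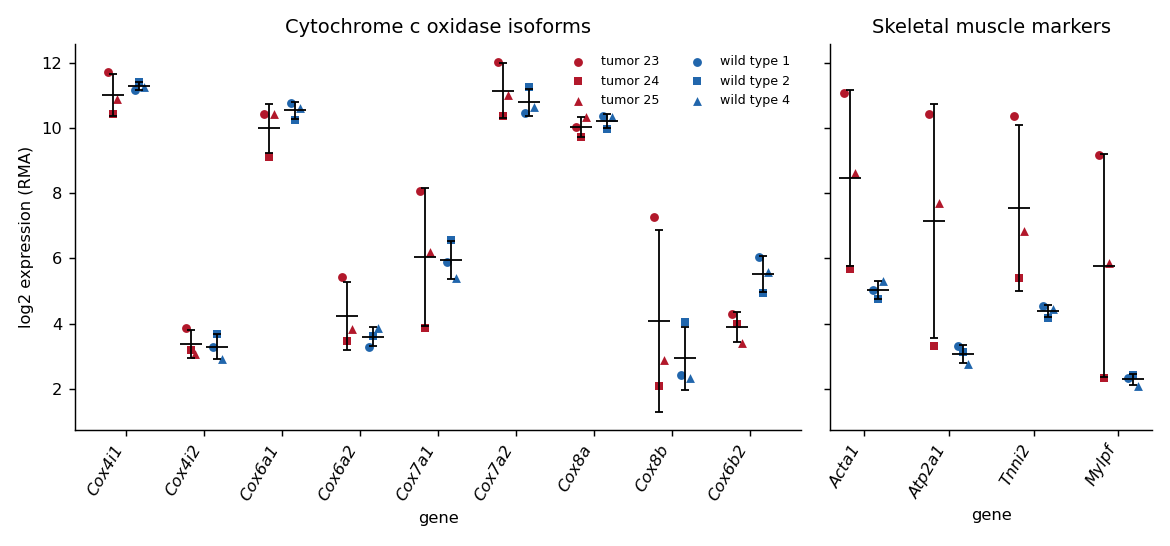
Points are log2 RMA values in each tumor (red, left of each pair) and each wild-type array (blue, right), with the mean and SD of 3 arrays as black lines, for cytochrome c oxidase isoforms on the left and 4 skeletal muscle markers on the right. Tumor 23 (circles) stands far above the other arrays for Cox8b and for the muscle markers, and tumor 24 (squares) lies below tumors 23 and 25 for all 4 muscle markers.

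Complex V, the ATP synthase, had a median difference of -0.33 over 18 genes, with 5 higher means. Atp5g1, 1 of 3 genes for the same mature subunit c, was the member that fell. It measured 2.79, 2.82 and 2.46 in tumors, against 4.11, 4.55 and 3.63 in wild-type cells, and the groups were separated by 0.81 at the nearest pair. All tumor values and the wild-type value of replicate 4 lay under the background mark, so the size is a difference of RMA values only. The fall was 1.41 ± 0.27 (SE), or 2.66-fold (limma, adjusted p of 0.0445). The call held in 5 of 15 alternative settings. It was lost in each of the 6 sets that left out 1 array (adjusted p from 0.057 to 0.124), with the muscle mean as a covariate (0.169), with quantile normalization again (0.067) and with tumor 24 alone (0.254). It was also lost with cyclic loess (0.056), where Cox6b2 was the 1 member called. The sister genes did not pass: Atp5g3 measured 6.98, 6.75 and 6.84 in tumors, against 7.78, 7.04 and 7.35 in wild-type cells, also without overlap, and Atp5g2 differed by -0.32 ± 0.34. All 3 subunit c genes thus had lower means in tumors.

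In the catalytic head of complex V the alpha subunit Atp5a1 measured 10.03, 8.82 and 10.74 in tumors, against 9.78, 9.72 and 9.95 in wild-type cells. Its tumors lay on both sides of the wild-type arrays and averaged out to a difference of 0.05 ± 0.46. The beta subunit Atp5b differed by 0.00 ± 0.25 and the gamma subunit Atp5c1 by 0.24 ± 0.19. Atp5d, the delta subunit of the central stalk, measured 4.06, 3.54 and 3.99 in tumors, against 4.25, 5.31 and 5.33 in wild-type cells. Its groups did not overlap, the difference was -1.10 ± 0.34 (adjusted p of 0.116 in limma), and the dimmer of its probe sets differed by -0.13 ± 0.20. The highest differences of the complex were those of a pair of peripheral stalk subunits. Atp5h, subunit d of that stalk, measured 10.52, 8.59 and 10.18 in tumors, against 8.59, 9.43 and 9.16 in wild-type cells. Tumors 23 and 25 lay above all wild-type arrays and tumor 24 level with the lowest, for a difference of 0.70 ± 0.52. The dimmer Atp5h probe set differed by 1.41 ± 0.55 and did not share this order of tumors. It measured 4.47, 4.89 and 3.33 in tumors, against 3.82, 2.27 and 2.37 in wild-type cells. Atp5pb, subunit b, differed by 0.41 ± 0.31. Other subunits of the same stalk did not share this, since Atp5j differed by -0.44 ± 0.21 and Atp5o by -0.41 ± 0.29.

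The 10 other lists, of mitochondrial genes and of hypoxia-inducible genes, had median differences from 0.27 to 0.92, against -0.06 for the subunits. The median of 13 housekeeping genes was 0.88, above that of 9 of these 10 lists. Sdha of complex II is among the 13, and its own difference of 0.88 is that median. With the arrays centred on the housekeeping genes, 7 of the 10 medians were below 0, at -0.35 to -0.023, and that of the subunits was -0.68. The share of all genes that passed was 3.91%. The single calls among carriers, tricarboxylic acid cycle, import and hypoxia-inducible genes (5.88% to 10% of each list) lie near it. Of 15 complex I assembly factors 3 rose and 0 fell, and the median was 0.92. Ndufaf7, a mitochondrial methyltransferase, measured 7.15, 6.02 and 6.97 in tumors, against 4.69, 3.64 and 4.96 in wild-type cells. It rose by 2.28 ± 0.44 (adjusted p of 0.0455 in limma), and Foxred1, another assembly factor, by 0.98 ± 0.16. The third was Ndufaf4, at 7.30, 7.32 and 7.53 in tumors, against 6.41, 6.57 and 6.51 in wild-type cells. Tumor 24 was the lowest tumor for 11 of the 15 assembly factors.

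None of 10 assembly factors of complexes II and III passed (median 0.60), with Bcs1l, which inserts the Rieske protein, at 1.16 ± 0.28 and Uqcc1 at 1.11 ± 0.38. None of 18 for complex IV passed (median 0.49), with Coa6 at 1.56 ± 0.67 and Coa3 at 1.34 ± 0.58. None of 6 genes for complex V assembly and inhibition passed (median 0.27), with Tmem242 at 1.95 ± 0.55 and the ATPase inhibitor Atpif1 at -0.72 ± 0.27. Of 14 genes for mobile carriers and coenzyme Q synthesis, 1 fell and 0 rose. It was Coq10b, a coenzyme Q binding protein, which fell by 1.39 ± 0.27 (adjusted p of 0.0464 in limma), with 6.83, 6.16 and 6.72 in tumors, against 7.56, 8.17 and 8.17 in wild-type cells.

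Of 17 genes of the tricarboxylic acid cycle, 1 rose and 0 fell, with a median of 0.75. Pdhb, a subunit of pyruvate dehydrogenase, rose by 1.48 ± 0.28 (adjusted p of 0.0446 in limma), with 8.81, 8.12 and 9.18 in tumors, against 7.25, 7.17 and 7.24 in wild-type cells. Of 17 import genes, 1 rose and 0 fell, with a median of 0.81. The rise was that of Timm9, a chaperone of the intermembrane space, by 1.98 ± 0.29. Of 16 regulators of mitochondrial biogenesis, 3 rose and 0 fell, with a median of 0.27. Ssbp1, which coats single-stranded mitochondrial DNA, rose by 2.30 ± 0.33, and Tfb1m, a ribosomal RNA methyltransferase, by 1.79 ± 0.34; the third was Polrmt, the mitochondrial RNA polymerase. Ssbp1 measured 9.44, 9.02 and 8.71 in tumors, against 7.37, 6.58 and 6.33 in wild-type cells, with no tumor low. None of 71 mitochondrial ribosomal protein genes passed, although 59 had higher means (median 0.48), with Mrpl49 at 2.20 ± 0.45 and Mrpl16 at 1.51 ± 0.36. Of 10 hypoxia-inducible genes, 1 rose and 0 fell. It was Vegfa, an angiogenic growth factor, by 2.44 ± 0.32. Most of these 10 calls were lost when 1 array was left out: Ssbp1 passed in 3 of the 6 sets, Coq10b and Ndufaf4 in 0, and the other 7 in 1 or 2. Calls over all genes also changed in these sets, from 867 to 1200 without tumor 24 and to between 72 and 375 in the others. All 10 differences kept their sign, with Ssbp1 at 2.08 to 2.60 and Ndufaf4 at 0.82 to 0.93.

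The order of the tumors recurred in 7 of these 10 lists. Against the wild-type mean, the mitochondrial ribosomal genes had medians of 1.07 in tumor 23, -0.05 in tumor 24 and 0.47 in tumor 25. Complex I assembly factors had 1.29, 0.35 and 0.81 in the same tumors, and import genes 1.01, 0.12 and 0.88. Tumor 24 was the lowest tumor in 9 of the 10 lists, and its lowest median among them was that of complex V assembly and inhibitor genes (-0.33), beside -0.62 for the respiratory chain genes. Biogenesis regulators did not share the order, with -0.02, 0.43 and 0.50. Ppargc1a, the coactivator that drives mitochondrial genes and is abundant in muscle and brown fat, measured 5.48, 3.23 and 3.75 in tumors, against 2.35, 2.53 and 2.56 in wild-type cells. Its wild-type values and that of tumor 24 lay under the background mark.

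**Figure D5:**
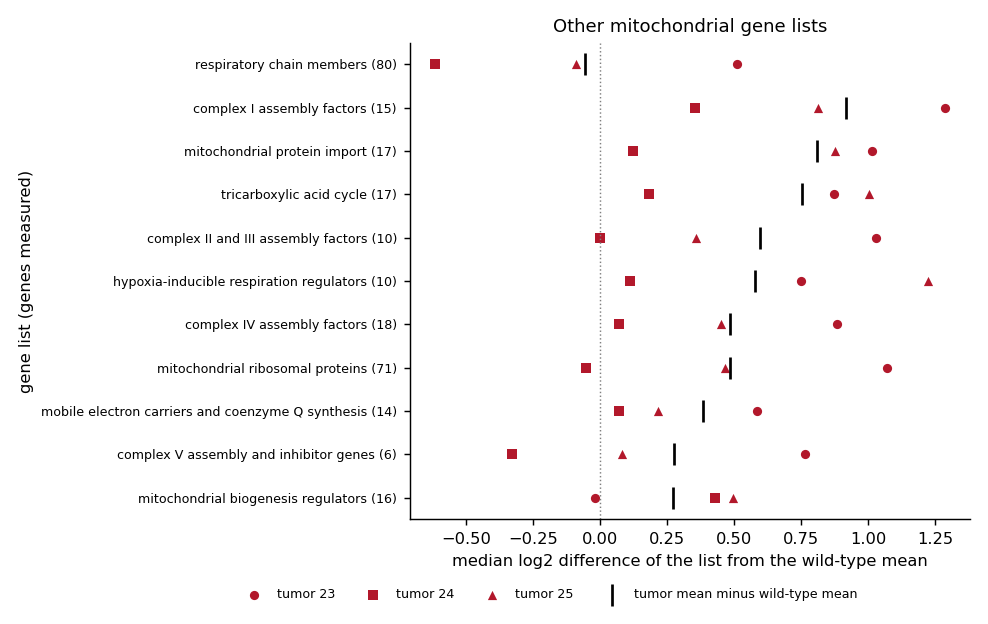
Red points give, for each list and tumor, the median over the list's genes of the log2 difference from the wild-type mean, and black bars the median difference of the tumor mean (n = 3) from it; the number of genes measured is in brackets. The respiratory chain members at the top have the lowest value in tumor 24 (-0.62) and a bar at -0.06, left of the bars of the 10 other lists.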

How the data were processed

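The authors deposited a table of log2 values with 1 value for each probe set on each array. RMA and oligo are the tools that the submitters' processing notes name, without versions. RMA is meant to bring arrays to a common distribution, which these values did not share exactly, and it compresses differences near background. No scanner files were used, so detection calls and scan batches could not be tested, and precision is limited by the number of arrays. Of 41345 probe sets, 23521 named 1 gene, and 23328 of these matched a RefSeq gene table (GRCm38.p6). All 22180 genes were fitted with limma 3.58.1 in R 4.3.3 (lmFit and eBayes, no covariates, no filter, two-sided), with Benjamini-Hochberg adjustment and a threshold of 0.05; the script was tested on simulated data. Errors of differences are moderated SE, with n = 3 arrays a group. P-values measure the spread between these samples. The genes, lists, motifs and background mark were chosen with earlier results of these data known. Named were called members, the 2 highest and 2 lowest of each complex, core subunits, isoform pairs, and in each list the called genes with the 2 largest changes or else the 2 largest differences. Cd24a, Esr1, Krt19, Cidea, Ndufa12, Cox7a2l, Atp5j, Atp5o, Ndufaf4, Polrmt and Ppargc1a were named after their values were seen. Alternatives were the mean of probe sets, probe sets singly, a filter at a mean of 5, quantile normalization again, housekeeping centring, cyclic loess, array weights, a trended robust prior, a muscle covariate, leaving out each array, and tumor 24 alone.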

Additional observations from a re-analysis of the deposited data

How the results depend on the processing

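No paired analysis was possible because the groups share no replicate number. The count of 1 member past the threshold became 2 with quantile normalization again (Cox6b2 and Cox7a2l), 2 with a trended robust prior, 2 with array weights, 23 with housekeeping centring (1 higher, 22 lower, among 7523 genes called), and 0 with the muscle covariate and with tumor 24 alone. Leaving out 1 array gave 0 in each of 6 sets, in which between 72 and 1200 of all genes were called. With the filter on dim genes Atp5g1 was not tested and Ndufs1 was the 1 member called, which is no support for it: its means were 6.48 in tumors and 4.50 in wild-type cells, so it passed the filter only through the tumors. With cyclic loess the 1 member called was Cox6b2. With housekeeping centring the medians were -0.68 for all members and -0.54, 0.057, -0.93, -0.80 and -0.95 for complexes I to V. With the muscle covariate they were -0.56, and -0.53, 0.051, -0.70, -0.88 and -0.61. For tumor 24 alone they were -0.62, and -0.52, -0.11, -0.62, -0.63 and -0.60. The muscle covariate and tumor 24 alone are not independent settings, since tumor 24 was the only tumor with muscle markers at the wild-type level. Leaving out 1 array, they ranged from -0.30 to 0.17 for all members, -0.16 to 0.49 for complex I, 0.41 to 1.03 for II, -0.57 to -0.13 for III, -0.55 (without tumor 23) to -0.025 (without tumor 24) for IV and -0.59 (without tumor 23) to -0.11 for V. Positive differences turned negative with housekeeping centring for Ndufa10 (-0.22), Ndufa2 (-0.23), Ndufb9 (-0.037), Ndufs7 (-0.14), Ndufv2 (-0.10), Atp5c1 (-0.38) and Atp5pb (-0.22). With the muscle covariate Ndufa2 (-0.24), Ndufb7 (-0.26), Ndufb9 (-0.48), Ndufs8 (-0.36), Ndufv2 (-0.30), Cox6a2 (-0.32), Atp5h (-0.21) and Atp5pb (-0.064) turned. For tumor 24 alone Ndufa10 (-0.20), Ndufa2 (-0.19), Ndufb7 (-0.15), Ndufb9 (-0.51), Ndufs8 (-0.51), Ndufv2 (-0.27), Uqcrc1 (-0.13), Cox6a2 (-0.12), Atp5h (-0.47) and Atp5pb (-0.12) turned. Cox5a turned to 0.031 without tumor 24. These turns cover differences larger than their SE, and their cause was not tested. The share of all called genes that lay higher in tumors was 64.5% as reported, 52.3% with cyclic loess, 44.3% with quantile normalization again and 7.28% with housekeeping centring. Settings for core subunits and pathway lists were chosen after seeing the data. Members under the background mark limit what can be read from their sizes.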

Other observations

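For 9 of the 80 genes a second, dimmer probe set named the gene alone. The sign of the difference, tumor minus wild type, disagreed between the 2 probe sets for 2 of them. Cox5b, a subunit of complex IV, differed by 0.06 ± 0.35 on the brighter and by -1.04 ± 0.26 on the dimmer, with 4.75, 4.02 and 4.36 in tumors 23, 24 and 25 on the dimmer, against 5.58, 5.05 and 5.63 in wild-type replicates 1, 2 and 4. Ndufa8, of complex I, differed by 0.02 ± 0.44 and -0.25 ± 0.32. For 4 of the 9 the probe sets differed from each other by more than 0.5, which bears on how closely a single probe set stands for its gene.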
